A study of Arabidopsis thaliana with 14 samples.

Results

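The 5 genes described here encode plant UDP-glucosyltransferases (UGTs): UGT73B5 (AT2G15480), UGT73C1 (AT2G36750), UGT76E11 (AT3G46670), GT72B1 (AT4G01070, also known as UGT72B1) and UGT84A1 (AT4G15480). They were picked among the UGT genes for their differences between genotypes, so those differences are given below as descriptions, with no test. Each gene had 1 probe set on the Affymetrix ATH1 array. Together they made up 5 of the 51 genes with a UGT name and a single-gene probe set, and 5 of the 13286 genes with such a probe set. Ranks and counts of UGT genes below refer to these 51. They leave out glucosyltransferases without a UGT name in the gene table, such as IAGLU. Tests ran over 22746 probe sets. Whole 12-day-old Arabidopsis seedlings, light-grown on agar, were profiled on 14 arrays in 6 groups. Columbia wild type and the csn5a-1 mutant, named for the COP9 signalosome subunit CSN5A, had 3 biological replicates each. The other groups were untreated Wassilewskija wild type, Wassilewskija + DTT, the CSN8 mutant and CSN8 + DTT, with 2 arrays each, 1 from batch 1 and 1 from batch 2. The labels do not give the allele or parental accession of the CSN8 mutant, nor the dose, timing or route of DTT, and the treatment text shared by all samples mentions none. What a batch was is not stated either, so p-values measure the spread between these arrays.

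UGTs move glucose from UDP-glucose onto small molecules, which changes the solubility, storage and activity of hormones, phenylpropanoids and foreign compounds. In Arabidopsis, UGT73B5 takes part in redox and pathogen responses, UGT73C1 can glucosylate cytokinins and detoxify trinitrotoluene, and UGT76E11 acts on flavonoids and is linked to abiotic stress. GT72B1 conjugates monolignols and chlorinated phenols and anilines, and UGT84A1 makes glucose esters of hydroxycinnamic acids, the precursors of sinapate esters and lignin. The COP9 signalosome removes the ubiquitin-like protein RUB from cullins and so regulates many ubiquitin ligases. Dithiothreitol (DTT) is a reducing agent that disturbs disulphide formation and protein folding in the endoplasmic reticulum.

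All levels below are log2 values, on which a difference of 1 is a 2-fold difference in signal. The 6 Columbia and csn5a-1 arrays and the 8 other arrays appeared to have been normalized apart, because their sorted values differed by a median of 0.472 to 0.534 between these sets. Levels were therefore compared only within a set, and levels of different genes were not compared. Correlations between replicate arrays of a group ran from 0.978 to 0.996. The CSN8 array of batch 1 stood apart in RNA quality, with a 3′ minus 5′ difference of 1.67 for the GAPDH control probe sets against 0.25 to 0.62 on the 7 other arrays of its set, and values without it are given below. The mutated loci CSN5A (AT1G22920) and CSN8 (AT4G14110) had no single-gene probe set among those used here, and the genotypes could not be checked on them. In such bulk seedling RNA, fewer cells of a type and less RNA per cell cannot be told apart.

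UGT73B5 showed the widest separation between CSN8 and Wassilewskija of the 51 UGT genes. Its level was 8.74 and 7.74 in Wassilewskija (batches 1 and 2) and 3.46 and 4.21 in CSN8. With DTT it was 8.32 and 8.43 in Wassilewskija and 4.88 and 4.96 in CSN8. Both mutant groups lay below every wild-type array of this set. The mean was 3.84 ± 0.53 in CSN8 against 8.24 ± 0.7 in Wassilewskija (SD, n = 2 each), a difference of -4.41 ± 0.36 (SE), or 21.2-fold. Within batch 1 the difference was -5.28 and within batch 2 it was -3.54. With DTT the difference was -3.46 ± 0.36, or 11-fold, and -3.44 and -3.47 within batches. The low untreated values have no detection call here, so whether 3.46 lies above background was not tested.

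In csn5a-1 the same gene gave no such separation. UGT73B5 was at 5.62, 5.49 and 5.56 in the 3 Columbia replicates and at 5.79, 5.14 and 4.92 in csn5a-1. The csn5a-1 arrays lay both above and below the Columbia range. The difference was -0.27 ± 0.21 with a 95% interval of -0.77 to 0.22, and it was -0.53 without csn5a-1 replicate 1 and -0.09 without csn5a-1 replicate 3. By size it ranked 30 of 51 UGT genes, against 1 of 51 in CSN8. Columbia arrays had UGT73B5 at percentiles 45.4 to 47.3 of their probe sets, and Wassilewskija arrays at 81.2 to 89.7. A fall of the size seen in CSN8 may not be visible from the Columbia level, so the 2 mutants are not contrasted.

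UGT73C1, the cytokinin and trinitrotoluene glucosyltransferase, was lower in both mutants. It was at 8.93 and 7.87 in Wassilewskija and 6.4 and 7.25 in CSN8, and with DTT at 8.77 and 8.94 in Wassilewskija and 7 and 6.7 in CSN8. The untreated groups came within 1 unit of each other, the treated ones stood further apart, and neither pair overlapped. The untreated difference was -1.58 ± 0.4 (2.98-fold), but it was -2.53 in batch 1 and -0.62 in batch 2, and -1.05 without the Wassilewskija array of batch 1. With DTT it was -2.01 ± 0.4 (4.01-fold), at -1.77 and -2.24 within batches. In the other set, Columbia replicates were at 5.49, 5.96 and 5.56 and csn5a-1 replicates at 3.67, 4.79 and 4.38. All 3 csn5a-1 arrays lay below all 3 Columbia arrays, with a difference of -1.39 ± 0.28 (2.62-fold).

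UGT76E11, the flavonoid glucosyltransferase, had the same direction in each genotype comparison. Its level was 8.13 and 6.82 in Wassilewskija and 4.97 and 5.26 in CSN8, with the treated wild type at 8.1 and 7.54 and the treated mutant at 5.89 and 5.48. Every CSN8 array was below every Wassilewskija array. The differences were -2.36 ± 0.43 untreated (5.14-fold, -3.16 and -1.56 within batches) and -2.14 ± 0.43 with DTT (4.4-fold, -2.22 and -2.06 within batches). Columbia replicates were at 6.82, 7.37 and 7.18, and csn5a-1 replicates at 5.62, 6.29 and 6. The csn5a-1 level was lower by -1.15 ± 0.21 on the log2 scale (2.22-fold) with no overlap.

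GT72B1, the monolignol and chlorophenol glucosyltransferase, varied least between the batches of untreated seedlings among the 4 genes that were lower in CSN8. It was at 9.15 and 9.03 in Wassilewskija and 6.01 and 6.24 in CSN8, while DTT-treated Wassilewskija was at 9.15 and 9.37 and DTT-treated CSN8 at 6.27 and 6.05. The gap between the lowest wild-type array and the highest mutant array exceeded 2 units in both. The difference was -2.97 ± 0.17 untreated (7.81-fold, -3.14 and -2.79 within batches) and -3.1 ± 0.17 with DTT (8.57-fold). In the other set Columbia was at 10.2, 9.75 and 9.57 and csn5a-1 at 8.29, 8.45 and 8.54. The csn5a-1 difference was -1.42 ± 0.17 (2.67-fold), so the gene was lower in both mutants, each against the wild type of its own set.

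UGT84A1, which forms hydroxycinnamate glucose esters, was the single gene of the 5 that differed in opposite directions in the mutants. It was at 4.72 and 4.66 in Wassilewskija and 5.98 and 6.14 in CSN8, while after DTT the wild type was at 4.72 and 4.62 and the mutant at 6.31 and 5.95. All 4 CSN8 arrays lay above all 4 Wassilewskija arrays. The difference was 1.37 ± 0.17 untreated (2.59-fold, 1.26 and 1.48 within batches) and 1.46 ± 0.17 with DTT (2.75-fold). Columbia replicates were at 6.12, 6.17 and 5.75 and csn5a-1 replicates at 4.49, 4.29 and 4.16. Here the mutant was the lower group, by -1.7 ± 0.15 (3.25-fold), and within replicate numbers the differences were -1.63, -1.87 and -1.59. The Wassilewskija and csn5a-1 values lay under the log2 level of 5 used as a filter. Whether they lie above background was not tested, so the fold sizes may be affected. The difference between the mutant effects was not tested, because it would span the separately normalized sets.

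**Figure D1:**
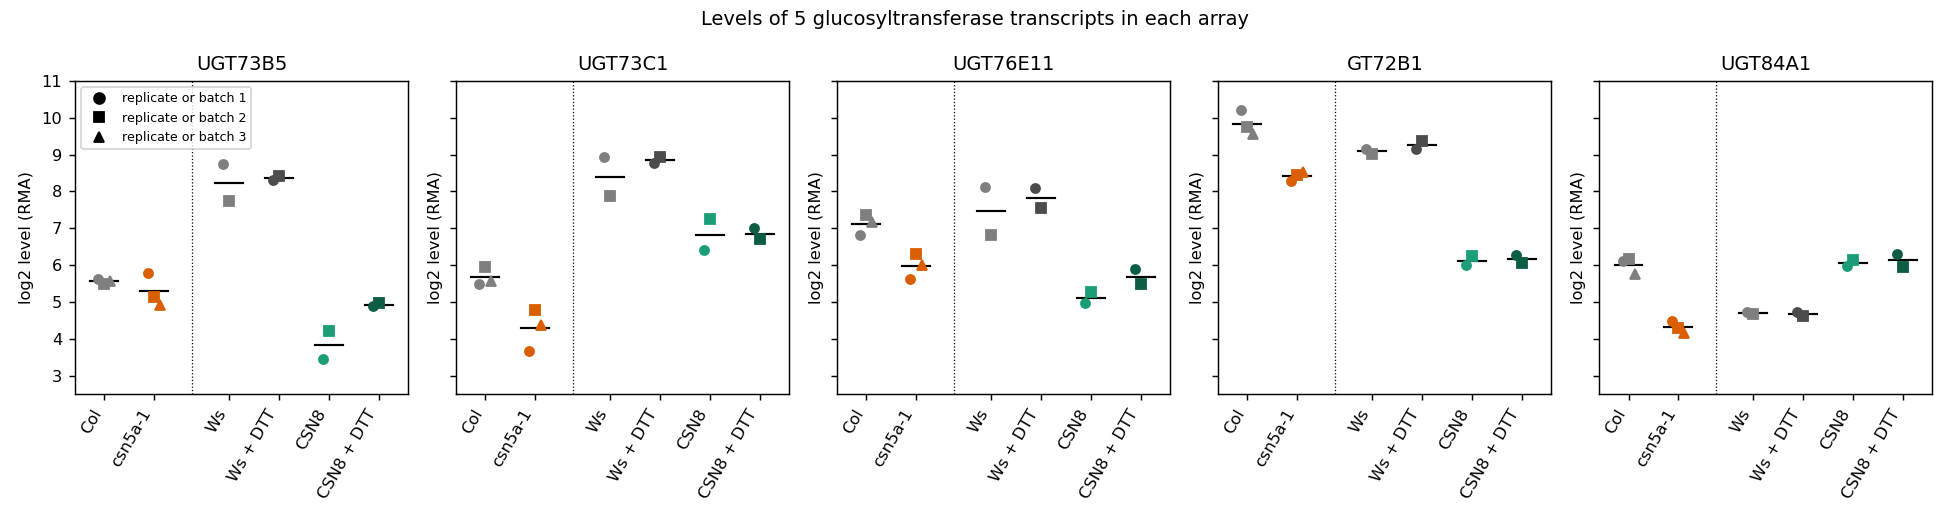
Log2 level of each of the 5 genes on every array, by group, with 1 panel per gene. Points are arrays, the marker shape gives the replicate or batch number, bars are group means, and the dotted line separates the sets, between which levels are not comparable (Col, Columbia and Ws, Wassilewskija); UGT73B5 drops from 8.74 and 7.74 in Wassilewskija to 3.46 and 4.21 in CSN8, and UGT84A1 is the gene that is higher in CSN8.

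The groups of CSN8 and Wassilewskija did not overlap for any of the 5 genes, where 47.7% of all probe sets gave groups that did not overlap. With DTT this was again 5 of 5, against 51% of all probe sets, and for csn5a-1 and Columbia it was 4 of 5, against 48.8%. The genes were chosen on these contrasts and nothing is read from these counts. By size among the 51 UGT genes, UGT73B5, GT72B1 and UGT76E11 ranked 1, 2 and 3 between CSN8 and Wassilewskija, UGT73C1 ranked 5 and UGT84A1 ranked 9. Between csn5a-1 and Columbia the ranks were 3 for UGT84A1, 5 for GT72B1, 7 for UGT73C1 and 9 for UGT76E11. Without the CSN8 array of batch 1 the differences from Wassilewskija were -4.04 for UGT73B5, -2.85 for GT72B1, -2.22 for UGT76E11, -1.15 for UGT73C1 and 1.45 for UGT84A1.

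**Figure D2:**
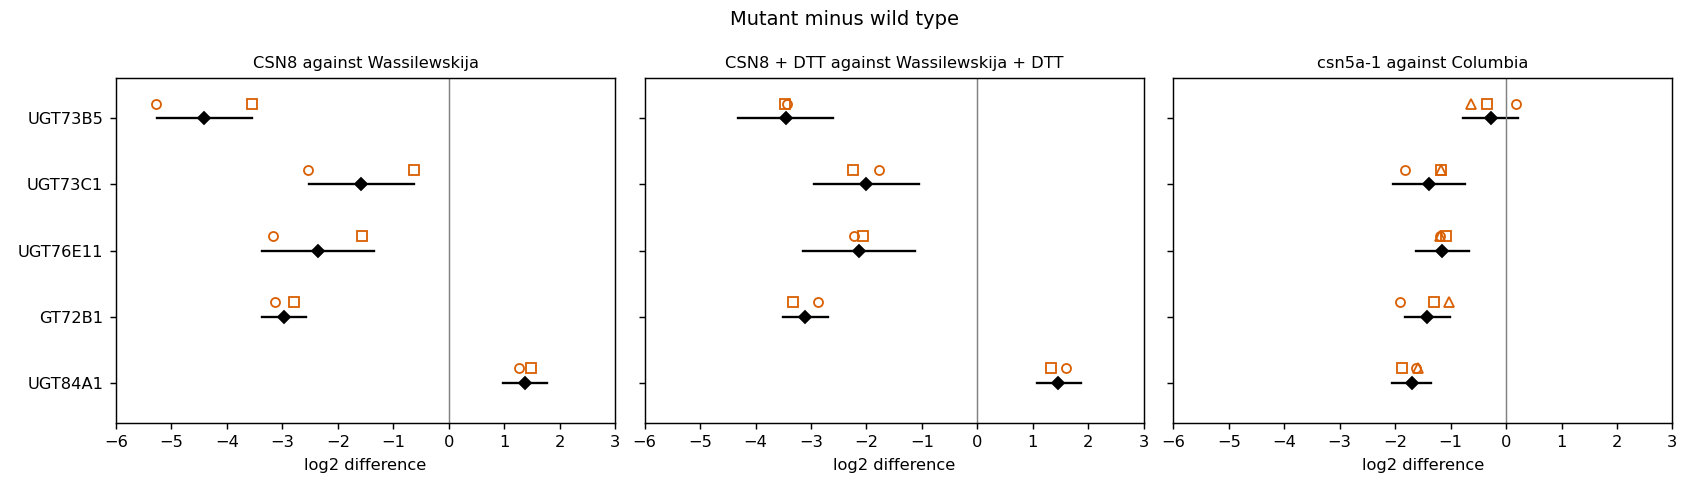
Log2 difference of mutant minus wild type for each of the 5 genes in the 3 genotype comparisons. Black diamonds are limma estimates with 95% intervals, and open markers are differences within batch or replicate number (circle 1, square 2, triangle 3); UGT84A1 lies at 1.37 and 1.46 in the CSN8 panels and at -1.7 in the csn5a-1 panel, while UGT73B5 goes from -4.41 to -0.27.

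Part of the spread in untreated seedlings was shared by UGT73B5, UGT73C1 and UGT76E11. In Wassilewskija, batch 1 exceeded batch 2 by 1 for UGT73B5, 1.06 for UGT73C1 and 1.31 for UGT76E11. In CSN8 the order was turned, with batch 1 minus batch 2 at -0.74, -0.85 and -0.29 for the same genes. GT72B1 and UGT84A1 differed between the Wassilewskija batches by 0.12 and 0.05. The untreated CSN8 differences of the 3 stress-linked genes were larger in batch 1 than in batch 2, whereas with DTT the batches gave closer values.

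Mean levels of organ markers and measures of RNA quality also varied between the genotypes. Between CSN8 and Wassilewskija 0 of 3 shoot and 0 of 3 root markers passed in limma, against 5.83% of all probe sets. With the batch block 1 of each passed, against 11.9%. In csn5a-1, 1 of 3 shoot markers was called lower and 2 of 3 root markers higher, against 32.9% of all probe sets. The mean of the 3 measured shoot markers (of 7 listed) was 12.51 and 12.82 in Wassilewskija and 11.84 and 12.18 in CSN8. The mean of the 3 measured root markers (of 6) was 6.74 and 6.84 in Wassilewskija and 5.78 and 6.45 in CSN8. Both means were thus lower in CSN8, and the shoot mean also in csn5a-1, at 12.49 to 12.58 against 12.86 to 13.03 in Columbia. The root mean was higher in csn5a-1, at 5.18 to 5.73 against 4.36 to 4.47, as was the 3′ minus 5′ difference of the actin control probe sets, at 3.93 to 4.95 against 3.35 to 3.67. The widest gap was in the 1 measured late seed marker (of 3), the LEA protein gene LEA4-5. It was at 5.01 to 5.07 in csn5a-1 against 8.99 to 9.2 in Columbia, a fall of 16.6-fold (limma adjusted p = 4.16e-06). As 1 gene measured in seedlings, it does not show a difference in seed development. The part of these markers and of RNA quality in the differences of the 5 genes was not tested.

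The test that did not reuse the contrasts behind the choice of genes was the DTT effect averaged over Wassilewskija and CSN8. None of the 5 genes passed it at an adjusted p of 0.05 in limma, where 2.34% of all probe sets did, and 1 of the 5 had an unadjusted p under 0.05, as did 13.9% of all probe sets. UGT73B5 had the highest estimate, 0.61 ± 0.25 with a 95% interval of 0 to 1.21, and values of 0.5 and 0.72 within batches (limma, unadjusted p = 0.0489, adjusted p = 0.355). Without 1 array it ran from 0.36 to 0.86 (limma adjusted p 0.118 to 0.667), with the lowest value without the Wassilewskija array of batch 2. UGT76E11 was at 0.45 ± 0.3 (-0.26 to 1.17, limma adjusted p = 0.621) and UGT73C1 at 0.24 ± 0.28 (-0.43 to 0.91, adjusted p = 0.832). GT72B1 and UGT84A1 gave the narrowest intervals. For GT72B1 the estimate was 0.1 ± 0.12 (-0.18 to 0.39, limma adjusted p = 0.824), and for UGT84A1 it was 0.02 ± 0.12 (-0.26 to 0.3, limma adjusted p = 0.976). All 5 estimates were above 0, and the intervals for GT72B1, UGT84A1 and UGT73C1 leave out an averaged 2-fold response. UGT76E11 ran from 0.13 to 0.78 without 1 array, with both ends set by a Wassilewskija array.

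Within each genotype, the DTT comparisons share arrays with the comparison used to choose the genes. In Wassilewskija 0 of the 5 passed, against 0.365% of all probe sets, and 0 had an unadjusted p under 0.05, with estimates from -0.02 for UGT84A1 to 0.45 for UGT73C1 (limma, every adjusted p = 0.999). In CSN8 0 of the 5 passed as well, against 1.29% of all probe sets. UGT73B5 was at 3.46 and 4.21 without DTT and 4.88 and 4.96 with it, so the groups did not overlap, which was also true of UGT76E11 and of 38.6% of all probe sets. Its difference in CSN8 was 1.08 ± 0.36 with an interval of 0.23 to 1.94 (limma, unadjusted p = 0.0202, adjusted p = 0.294), and 1.42 and 0.75 within batches. It was 0.71 without the CSN8 array of batch 1 (limma adjusted p = 0.696), a fall of over 1.5 times. For UGT76E11 it was 0.57 ± 0.43 (limma adjusted p = 0.757). GT72B1, UGT73C1 and UGT84A1 were at 0.04, 0.02 and 0.07 in CSN8 (limma adjusted p from 0.957 to 0.995). The mean of the root markers also differed with DTT, at 4.74 to 5.38 in Wassilewskija and 4.87 to 4.88 in CSN8 against the untreated values above, and its part in these estimates was not tested.

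Whether DTT acted differently in CSN8 and Wassilewskija was tested by the difference of the effects. Of all probe sets 0% passed in limma, while 662 had an unadjusted p under 0.05, and limma with the trend option or with the batch block also called 0. For UGT73B5 the difference was 0.95 ± 0.51 (limma adjusted p = 1), from 1.83 in batch 1 and 0.06 in batch 2. It was 0.45 without the Wassilewskija array of batch 1 and 1.45 without that of batch 2. For UGT73C1 the difference of effects was -0.43, from 0.76 in batch 1 and -1.62 in batch 2. The other 3 genes lay between -0.13 and 0.22. The batches disagreed in sign for UGT73C1 and for each of these 3, with GT72B1 at 0.27 and -0.53, UGT76E11 at 0.94 and -0.49 and UGT84A1 at 0.33 and -0.15.

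**Figure D3:**
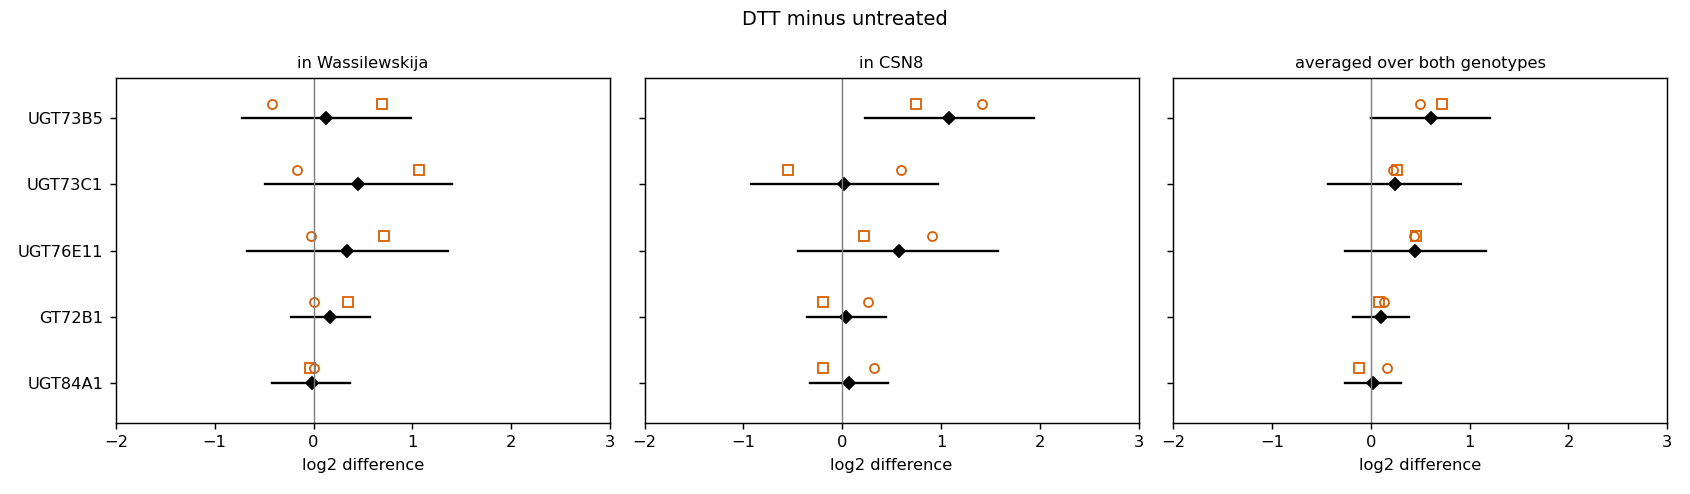
Log2 difference of DTT minus untreated for the 5 genes in Wassilewskija, in CSN8 and averaged over both. Diamonds are limma estimates with 95% intervals and open markers are within-batch differences (circle batch 1, square batch 2); the averaged estimates run from 0.02 for UGT84A1 to 0.61 for UGT73B5, and none passed the adjusted threshold.

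The DTT label itself was visible in genes of the unfolded protein response, which restores protein folding in the endoplasmic reticulum. Of 10 measured genes (of 20 listed), 7 rose and 0 fell in the averaged comparison, with a median of 2.06 against 0.01 over all probe sets. BZIP60, a transcription factor of this response, rose by 2.71 ± 0.18 (limma adjusted p = 0.00209) and OS9, of endoplasmic reticulum quality control, by 2.37 (adjusted p = 0.00271). In the UGT family 0 of 51 genes passed in the averaged comparison, in either genotype or in the difference, with or without the batch block in limma. At an unadjusted p under 0.05 the counts were 6 averaged (11.8%), 1 in Wassilewskija (1.96%), 4 in CSN8 (9.8%) and 0 for the difference. Over all probe sets the shares were 13.9%, 6.52%, 11.3% and 2.91%, each above that of the UGT genes.

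For the phenylpropanoid genes that act before or beside GT72B1 and UGT84A1, 3 of 26 listed genes had a single-gene probe set. CCR2, a cinnamoyl-CoA reductase, fell by 2.31 ± 0.19 in csn5a-1 (limma adjusted p = 0.000128), and HCT, a hydroxycinnamoyl transferase, fell by 1.33 ± 0.16 (adjusted p = 0.000854), whereas ALDH2C4 did not pass. Of these genes, 0 passed between CSN8 and Wassilewskija, where HCT was at -0.66 ± 0.29 (limma adjusted p = 0.248), and 0 with DTT, also 0 and 0 at an unadjusted p under 0.05 and with the batch block. The HCT difference was -0.36 without the CSN8 array of batch 2. In the averaged DTT comparison CCR2 rose by 2.14 ± 0.39 (limma adjusted p = 0.0451), and this call was lost in 7 of 8 fits that left out 1 array, with adjusted p-values of 0.042 to 0.154. Of 23 listed detoxification genes 3 were measured, all glutathione transferases, which conjugate foreign compounds with glutathione. GSTU25 rose by 1.32 ± 0.14 in csn5a-1 (limma adjusted p = 0.000404). GSTU22 was at -1.37 ± 0.71 in CSN8 (limma adjusted p = 0.335) and passed with the batch as a block (adjusted p = 0.00625). It was -0.69 without the Wassilewskija array of batch 1 and -2.04 without that of batch 2. It was at -1.97 between CSN8 and Wassilewskija with DTT (limma adjusted p = 0.199), where the block also moved it past the threshold (adjusted p = 0.00238), and leaving out a Wassilewskija + DTT array gave -1.18 (batch 1) or -2.76 (batch 2).

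Several of the 5 genes sit beside close relatives, as ordered in the TAIR10.1 gene table. UGT73B5 is next to UGT73B4, UGT73C1 is next to UGT73C2, UGT84A1 is next to UGT84A3 with UGT84A4 after it, and UGT76E12 is 2 genes from UGT76E11. GT72B1 had no measured UGT gene within 3 places. Probe sets of such relatives may share hybridization, which was not tested.

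UGT84A3, a hydroxycinnamate glucosyltransferase like its neighbour, differed in the other direction from UGT84A1 in CSN8. It was at -0.87 between CSN8 and Wassilewskija (limma adjusted p = 0.0888, and 0.0197 with the batch as a block) and fell by 1.23 ± 0.24 with DTT (limma adjusted p = 0.0425, lost in 8 of 8 fits without 1 array). In csn5a-1 it fell by 0.94 (limma adjusted p = 0.00818), the direction of UGT84A1. UGT84A4 was at 0.08 in CSN8 (limma adjusted p = 0.902).

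UGT76E12 had the direction of UGT76E11 in the 3 genotype comparisons. It was at 6.26 and 4.48 in Wassilewskija and between 3.71 and 4.27 in CSN8, a difference of -1.38 (limma adjusted p = 0.259, and 0.0312 with the batch block). That difference was -0.49 without the Wassilewskija array of batch 1 and -2.27 without that of batch 2. With DTT the difference was -2.22 (limma adjusted p = 0.109, and 0.00878 with the block), and it fell by 1.27 ± 0.2 in csn5a-1 (adjusted p = 0.00269). UGT73B4 was at -1.24 in CSN8 (limma adjusted p = 0.169, and 0.0308 with the block), or -0.61 and -1.87 without the same arrays, and at -0.4 in csn5a-1 (adjusted p = 0.0926). UGT73C2 was at -0.08 in CSN8 (limma adjusted p = 0.817). Its level was only 2.53 and 2.59 in Wassilewskija and 2.43 and 2.53 in CSN8, under the log2 level of 5 used as a filter. A fall like that of UGT73C1 may not be visible at such a level, so the 2 neighbours are not contrasted.

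**Figure D4:**
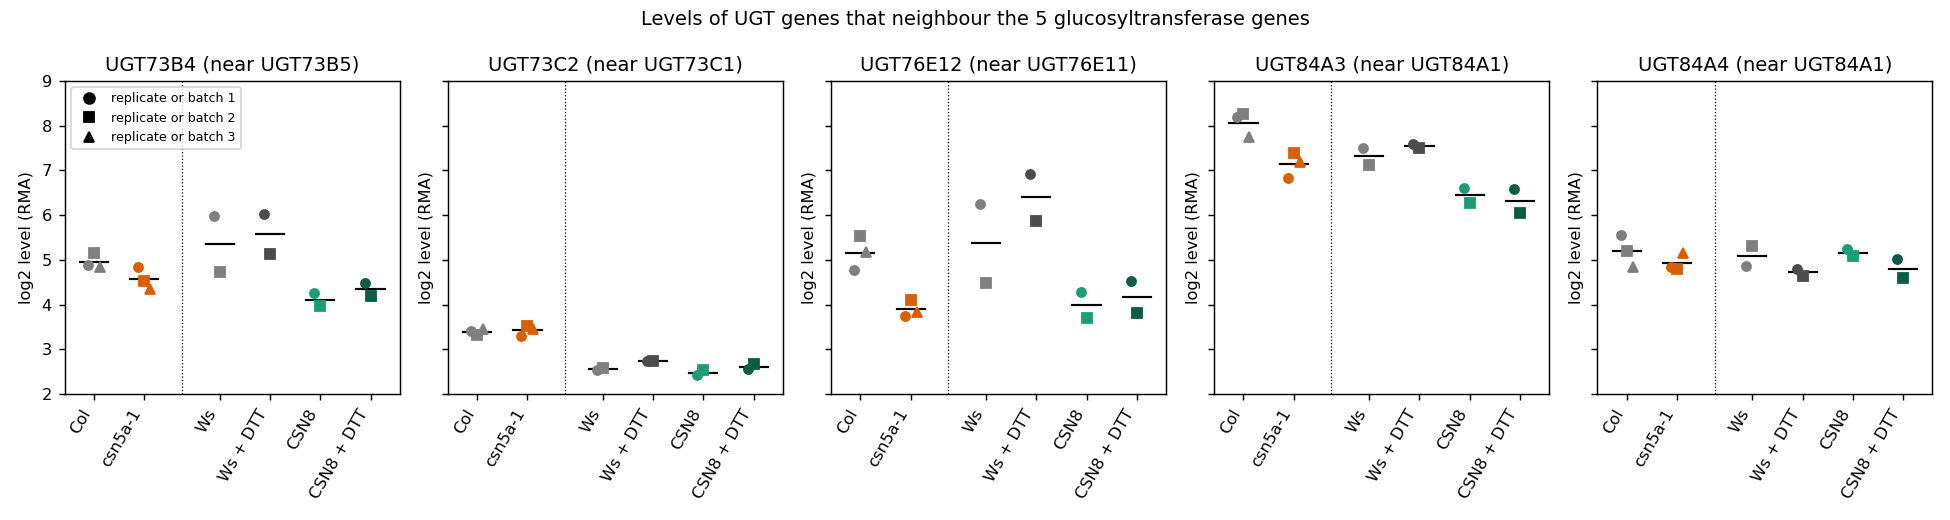
Log2 level of the neighbouring genes UGT73B4, UGT73C2, UGT76E12, UGT84A3 and UGT84A4 on every array, drawn as for the 5 genes (Col, Columbia and Ws, Wassilewskija). UGT76E12 runs from 3.71 to 4.27 in CSN8 against 4.48 and 6.26 in Wassilewskija, and UGT84A3 is the lower in CSN8, unlike UGT84A1.

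Among the 46 UGT genes outside the 5, 5 passed between CSN8 and Wassilewskija (10.9%), with 3 of them higher and 2 lower, against 5.83% of all probe sets. With the batch as a block these counts became 3 higher and 7 lower (21.7%), against 11.9% of all probe sets. UF3GT, an anthocyanin glycosyltransferase, rose by 1.52 ± 0.29 (limma adjusted p = 0.032), UGT78D2, a flavonoid 3-O-glucosyltransferase, by 1.28 ± 0.28 (adjusted p = 0.0475) and UGT71B1 by 0.97 ± 0.21 (adjusted p = 0.0457). UGT74B1, of glucosinolate synthesis, fell by 1.45 ± 0.29 (limma adjusted p = 0.0362) and UGT71C5, which makes the glucose ester of abscisic acid, by 1.28 ± 0.2 (adjusted p = 0.0163). Of the 8 fits that each left out 1 array, the call was lost in 6 for UF3GT and UGT74B1, 7 for UGT78D2, 8 for UGT71B1 and 3 for UGT71C5. UGT78D2 was at 0.82 without the CSN8 array of batch 2. Over the 46 UGT genes outside the 5 the median difference was -0.13, against 0.02 over all probe sets.

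With DTT, 4 of the 46 passed between CSN8 and Wassilewskija (8.7%), against 4.13% of all probe sets, or 7 (15.2%) against 8.99% with the batch as a block. UF3GT rose by 2.09 (limma adjusted p = 0.015) and UGT78D2 by 1.93 (adjusted p = 0.017), while UGT71C5 fell by 1.02 (adjusted p = 0.0405). UF3GT lost its call in 3 of 8 fits without 1 array, UGT78D2 in 4 and UGT71C5 in 6. These comparisons and the untreated ones share no array, but they share the batches and 1 estimate of the spread. Deviations of same-batch treated and untreated arrays of a genotype correlated at 0.57, so the comparisons are not independent.

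Between csn5a-1 and Columbia 18 of the 46 passed (39.1%), 5 higher and 13 lower, against 32.9% of all probe sets. UGT74D1, which glucosylates auxins, fell by 1.85 ± 0.15 (limma adjusted p = 0.000149) and UGT72B3, of the family of GT72B1, by 1.61 ± 0.14 (adjusted p = 0.00021). UGT85A2 rose by 1.85 ± 0.31 (limma adjusted p = 0.00343) and UGT85A4 by 1.41 ± 0.15 (adjusted p = 0.000424). UGT72E3 and UGT72E1, which act on monolignols and their aldehydes, rose by 0.64 ± 0.14 (limma adjusted p = 0.0103) and 0.59 ± 0.19 (adjusted p = 0.0498), and UGT72E1 lost its call in 5 of 6 fits without 1 array. Of the 5 calls in CSN8 and the 18 in csn5a-1, 0 had the same direction in both and 2 had opposite directions (40% of the former and 11.1% of the latter), namely UGT78D2 and UGT71B1. Each was higher in CSN8 and lower in csn5a-1, as UGT84A1 was. With the batch as a block in CSN8 there were 10 calls. Of these, 3 had the same direction in csn5a-1 (UGT84A3, UGT73B1 and UGT76E12, all lower). Another 3 had the opposite direction (UGT72E1 beside the former pair), and each count is 30% of the 10 and 16.7% of the 18. Shared and opposite calls over all probe sets were not counted. As 32.9% of all probe sets passed in csn5a-1, nothing is read from these overlaps. The glucosyltransferase gene IAGLU, which these counts leave out, was lower in both mutants, and this was not tested. It was at 7.44 and 7.35 in CSN8 against 10.08 and 9.35 in Wassilewskija. In csn5a-1 it was at 6.73 to 7.38, against 8.56 to 9.06 in Columbia.

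**Figure D5:**
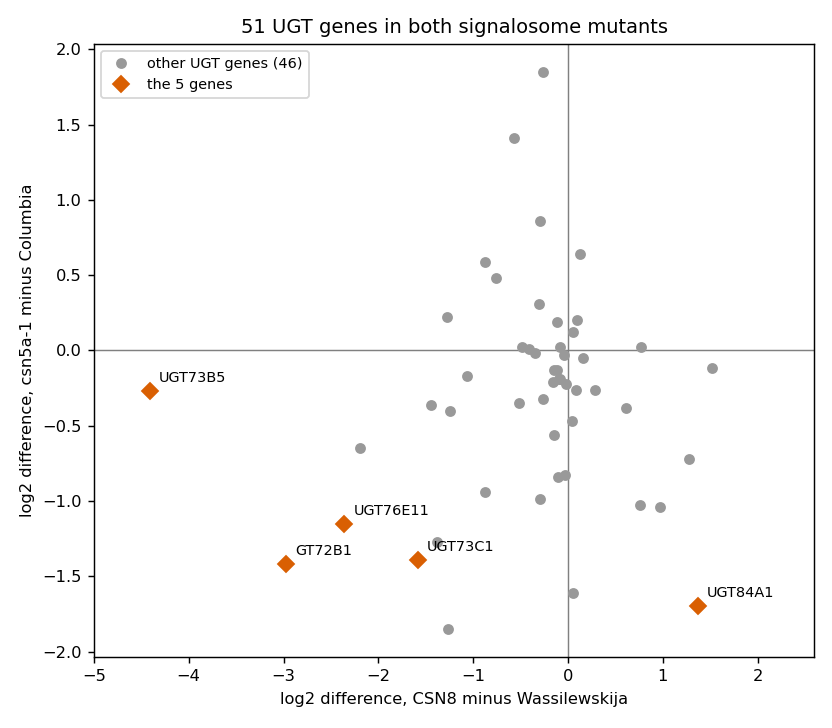
Log2 difference of the 51 UGT genes between CSN8 and Wassilewskija (horizontal) and between csn5a-1 and Columbia (vertical), with the 5 genes as labelled diamonds and the other 46 as grey points. UGT73B5 lies far left near 0 on the vertical axis (-4.41, -0.27), and UGT84A1 at the lower right (1.37, -1.7).

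The UGT73 family, grouped by gene number, held 7 measured genes including UGT73B5 and UGT73C1. Its 5 other genes ranged from -2.19 to -0.03 in CSN8, with a median of -0.48, and from -2.35 to 0.22 with DTT, with a median of -0.13. UGT73B1 was at -2.19 (limma adjusted p = 0.0611, and 0.0327 with the batch as a block), or -1.41 without the Wassilewskija array of batch 1. With DTT it was at -2.35 (adjusted p = 0.06, and 0.0315 with the block). In csn5a-1 it fell by 0.65 (limma adjusted p = 0.0289), a call that 4 of 6 fits without 1 array lost. The 7 measured UGT76 genes other than UGT76E11 ranged from -1.38 to 0.1 in CSN8, with a median of -0.29.

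Over the 8 arrays of Wassilewskija and CSN8, UGT73B5, UGT73C1, UGT76E11 and GT72B1 varied together, with Pearson correlations of 0.94 to 0.98, and each varied against UGT84A1 (-0.98 to -0.88). These arrays fall into 4 wild-type and 4 mutant arrays, which the genes were chosen to separate, so the correlations are descriptions only. Among 1550 probe sets with a gene symbol, the most similar to UGT73B5 were ARR15, a cytokinin response regulator, Phox4 and ATL8, a RING-H2 protein (r = 0.99 each). GT72B1 was most like the glutaredoxin gene ROXY2 (0.99), the cold-regulated COR15B (0.98) and the YABBY gene YAB5 (0.98). UGT76E11 was most like RD2 (0.99), UGT73B1 (0.98) and IAGLU (0.97), and UGT73C1 most like UGT73B1 (0.97), UGT76E11 (0.96) and the glutathione transferase GSTF4 (0.96). UGT84A1 was most like DFR and CHIL of flavonoid synthesis and the tubulin TUB1 (0.98 each). Over the 6 Columbia and csn5a-1 arrays the correlations of UGT84A1 with the other 4 were positive (0.54 to 0.96), and those of UGT73B5 with GT72B1, UGT76E11 and UGT73C1 were 0.09 to 0.38. There some of the likeness pairs had a high correlation, such as GT72B1 with ROXY2 (0.95) and UGT73C1 with UGT76E11 (0.98), while GT72B1 with YAB5 was at -0.98.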

How the data were processed

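The authors deposited log2 signals per ATH1 probe set. These came from RMA, per the submitters' processing notes. Its version was not given in the sources used here, and no detection calls were used. RMA corrects background, quantile-normalizes arrays and summarizes probes, so a probe set's level is relative to its normalization set. Of 22810 probe sets, 64 controls were left out. The platform annotation gave exactly 1 gene for 13513 of them, and 13436 of these matched the TAIR10.1 gene table, which supplied symbols and gene order.

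Comparisons were fitted with limma 3.58.1 in R 4.3.3, separately for the 6 Columbia and csn5a-1 arrays and for the 8 others, whose 4 groups shared 1 estimate of the spread. Tests were two-sided, with Benjamini-Hochberg adjustment over 22746 probe sets and a threshold of 0.05. The number of arrays limits the precision. The batch given in the labels was used to pair the 8 arrays. Deviations of same-batch arrays correlated at 0.57 between DTT and untreated arrays of a genotype, but at 0.07 between untreated Wassilewskija and CSN8. With DTT these genotypes correlated at 0.38. Blocked values are printed where they change a call or a count by over 1.5 times. The fit was tested on simulated data.

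The 5 genes and all gene lists were chosen with earlier results of these data known. UGT genes were those whose symbol or synonym is a UGT number, so the list is not every glucosyltransferase on the array. For each comparison, up to 4 of those outside the 5 with the largest calls in each direction are named, and up to 3 per other list or, where none passed, the one with the smallest p. Gene neighbours, UGT73B1, and the genes most correlated with each of the 5 were added. Alternatives were the batch block, quantile normalization, median centring, a filter on probe sets under a log2 level of 5, limma's trend option and leaving out each array. Sequences and coordinates were not used here.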

Additional observations from a re-analysis of the deposited data

Results flagged for a closer look

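For 7 of the 51 UGT genes, the untreated CSN8 and csn5a-1 arrays all lay on opposite sides of the wild-type arrays of their sets. Groups without overlap made up 47.7% of all probe sets for CSN8 and 48.8% for csn5a-1. How many of all probe sets ran in opposite directions was not counted, so nothing is read from the 7. The mutant differences come from separately normalized sets, and the difference between them was not tested. For UGT84A1 the log2 difference was 1.37 in CSN8 and -1.7 in csn5a-1, 3.07 apart. UGT71B1 was at 0.97 in CSN8 and -1.04 in csn5a-1, 2.01 apart, and UGT78D2 at 1.28 and -0.72, 1.99 apart. The other pair ran the opposite way, with UGT85A4 at -0.57 in CSN8 and 1.41 in csn5a-1 (-1.97 between them) and UGT72E1 at -0.87 and 0.59 (-1.46). UGT71C4 was at 0.76 in CSN8 and -1.03 in csn5a-1, and UGT71B6 at -0.76 and 0.48. These last genes fall outside the naming rule and were named after their values were seen. UGT84A1 was chosen for such differences.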

How the results depend on the processing

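The directions of the genotype differences of the 5 genes were the same under every alternative run that kept the gene. The filter on probe sets under a log2 level of 5 removed UGT73C1 from the csn5a-1 comparison. Its csn5a-1 arrays were at 3.67 to 4.79, and whether these lie above background was not tested. The replicate block (the batch pairing) changed the counts of called probe sets. They were 2706 rather than 1327 for CSN8 and 2045 rather than 940 for CSN8 + DTT. For DTT they were 1068 rather than 533 averaged, 186 rather than 83 in Wassilewskija and 705 rather than 293 in CSN8. Of the 46 UGT genes outside the 5, 10 rather than 5 passed for CSN8. The block changed no DTT call of the 5 genes. In csn5a-1 the numbers did not pair the arrays (r of 0.04 to 0.07), and the block gave 6925 calls rather than 7474. Deviations of same-batch arrays of untreated Wassilewskija and CSN8 also correlated at only 0.07. Leaving out 1 array gave 408 to 1035 calls for CSN8 (408 without CSN8 batch 1), 103 to 806 for CSN8 + DTT, 5421 to 7221 for csn5a-1, 147 to 449 for averaged DTT, 1 to 63 for DTT in Wassilewskija, 2 to 246 for DTT in CSN8 and 0 to 9 for the difference of DTT effects. UGT calls then ran from 18 to 22 in csn5a-1, a count that includes the 5 genes chosen on such contrasts and is no test of them. Fewer arrays leave fewer degrees of freedom, and a lone array is assumed to vary like the other groups.

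Some DTT estimates near 0 changed sign, and the cause was not tested. UGT84A1 in Wassilewskija was at 0.02 with quantile normalization and 0 with median centring, and UGT73C1 in CSN8 at -0.01 with quantile normalization. Without 1 array the averaged estimate ran from -0.03 to 0.5 for UGT73C1 and -0.07 to 0.11 for UGT84A1. In Wassilewskija it ran from -0.36 to 0.63 for UGT73B5, -0.31 to 1 for UGT76E11, -0.08 to 0.98 for UGT73C1 and -0.07 to 0.02 for UGT84A1. In CSN8 it ran from -0.08 to 0.15 for GT72B1, -0.4 to 0.45 for UGT73C1 and -0.11 to 0.24 for UGT84A1. For the difference of effects it ran from -0.43 to 0.88 for UGT76E11, -0.96 to 0.1 for UGT73C1 and -0.09 to 0.27 for UGT84A1. The CSN8 difference of UGT84A4 ran from -0.15 to 0.3. With limma's trend option UGT71B1 in CSN8 (adjusted p = 0.0646) and UGT71C5 with DTT (0.0529) no longer passed, and UGT72E1 did not with that option (0.05), quantile normalization (0.0531) or median centring (0.0686). UGT73B1 passed in CSN8 with the dim filter (limma adjusted p = 0.0355, and 0.033 with DTT) and the trend option (0.0404, and 0.0372 with DTT), and UGT73B4 in csn5a-1 with quantile normalization (0.0491).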

Other observations

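Values of 3 other UGT families, grouped by gene number after the values were known, are given without a test. The 3 measured UGT78 genes, a family that glycosylates flavonols and anthocyanins, were all above 0 in CSN8 (0.29 to 1.28, median 0.77) and had a median of -0.26 in csn5a-1. The 3 measured UGT74 genes were all below 0 in both mutants, with medians of -1.27 in CSN8 and -0.36 in csn5a-1. The 5 measured UGT85 genes had a median of -0.26 in CSN8, where 4 were below 0 and none passed, and of 0.31 in csn5a-1, where 2 rose.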
